A study of Oryza sativa Japonica Group with 36 samples.

Results

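K354 after 12 h of cold is a group of 3 Affymetrix rice genome arrays, each made from whole shoots of K354 seedlings kept at 4 °C for 12 h. The members were chosen by their labels: 3 of the 36 arrays of the series carry the labels K354 and 12 h of cold stress, and no measured value was used. K354 is a BC2F6 introgression line with cold tolerance, bred by backcrossing the indica variety Bg300 to C418, a japonica restorer line that served as recurrent parent. All seedlings were at the 3-leaf stage. The main comparison sets these 3 arrays against 3 arrays of K354 control shoots, which stayed at 25 °C and in which the study combined shoots taken at 2 h and at 24 h. Further groups of 3 arrays each were used beside them: K354 after 6 h and after 24 h at 4 °C, and C418 after 12 h at 4 °C with its own control at 25 °C. Each array of a group came from a separate pot. K354 is 1 fixed line that carries several donor segments, so a difference from C418 belongs to the line and not to any segment. Seedlings were raised in a 12 h photoperiod, and the control held shoots of 2 h and 24 h and none taken at 12 h. At 12 h, cold and time of day therefore cannot be told apart for genes that follow a daily rhythm. The 6 h, 12 h and 24 h cold groups also differ from each other in time of day.

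In rice and other plants, chilling raises free calcium in the cell within minutes, and calmodulin-like proteins, calcium-dependent kinases and calcium pumps read and then remove this signal. The DREB1 factors, named CBF in Arabidopsis, are AP2-type transcription factors that bind a short element in the promoters of cold-responsive genes. Around them act MYB, NAC and WRKY factors, the jasmonate and abscisic acid pathways, and the circadian clock, while growth, protein synthesis and water transport are commonly reduced in chilled shoots.

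The 57258 rice probe sets of the array were tested on the log2 scale with limma, and a probe set was called where its Benjamini-Hochberg adjusted p was under 0.05 and its change more than 5-fold. The deposited values are intensities on a linear scale, and a log2 change is the mean log2 intensity of the cold group minus that of the control. Median intensities were 66.6, 61.5 and 56.8 on the 12 h arrays, against 63.0 to 64.6 on the control arrays. The label shoot was borne out by leaf markers: the summed intensity of 7 genes of Rubisco, Rubisco activase and light harvesting was 65084 to 67804 on the 12 h arrays and 70565 to 70807 on the control arrays, with 1 of them, RBCS1, below the 25th percentile of its array in both groups. Root markers were low at 12 h and uneven: 6 genes summed to 378 to 581 at 12 h, against 712 to 4854 in the control and 456.5 to 9663 in K354 at 6 h. The iron-deficiency genes OsNAS1 and OsNAS2 averaged 82.8 and 101 at 12 h, against 916 and 877 in control. The others did not fall alike: OsNAS3 averaged 171 against 124, OsNRT2.3 39.9 against 38.7, a phosphate transporter gene 19 against 19.9, and osysl15 82 against 127. Seed markers summed to 1813 to 1891 at 12 h, against 2008 to 2099 in the control, and anther and pollen markers to 107 to 146, against 174 to 198. The part of these shifts in the results was not tested, and in whole shoots fewer cells of a type and less RNA per cell cannot be told apart.

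Replicate 1 of the 12 h arrays stood apart. Its log2 intensities correlated at 0.992 and 0.991 with replicates 1 and 3 of K354 at 6 h, but at 0.986 with each of the other two 12 h arrays. Replicate 2 of the 24 h arrays correlated at 0.985 with replicate 2 of 12 h and at 0.983 and 0.979 with its own group. Counts of calls that use these arrays are given with and without them.

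After 12 h of cold, 406 probe sets were called higher and 106 lower than in K354 control, which is 0.709% and 0.185% of all tested. By adjusted p alone, at 0.05, 6809 were higher and 11029 lower, and the median change over all probe sets was -0.07. The 12 largest called rises with a described gene were of mixed function, with 2 AP2 domain genes first and the JAZ repressor OsTIFY11a last. The 12 largest called falls were also mixed, with a flavonol glucosyltransferase and an embryo-specific gene first and a DUF26 kinase last. This split depended on scale. The spiked control RNAs of the array were brighter on the 12 h arrays than on the control arrays, by 0.37 on the log2 scale for the 27 hybridization controls and by 0.54 for the 36 poly-A controls. With arrays scaled to the first, 284 probe sets were called higher and 237 lower, and with arrays scaled to the second 239 and 341, while the median change became -0.44 and -0.61. The counts in the gene lists below depend on scale too, and the poly-A counts are given beside most of them. By adjusted p alone, 16.3% of all 17905 genes were higher and 31.3% lower, and each list count is to be read beside these shares. Without replicate 1 of the 12 h arrays, 437 were called higher and 104 lower.

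**Figure D1:**
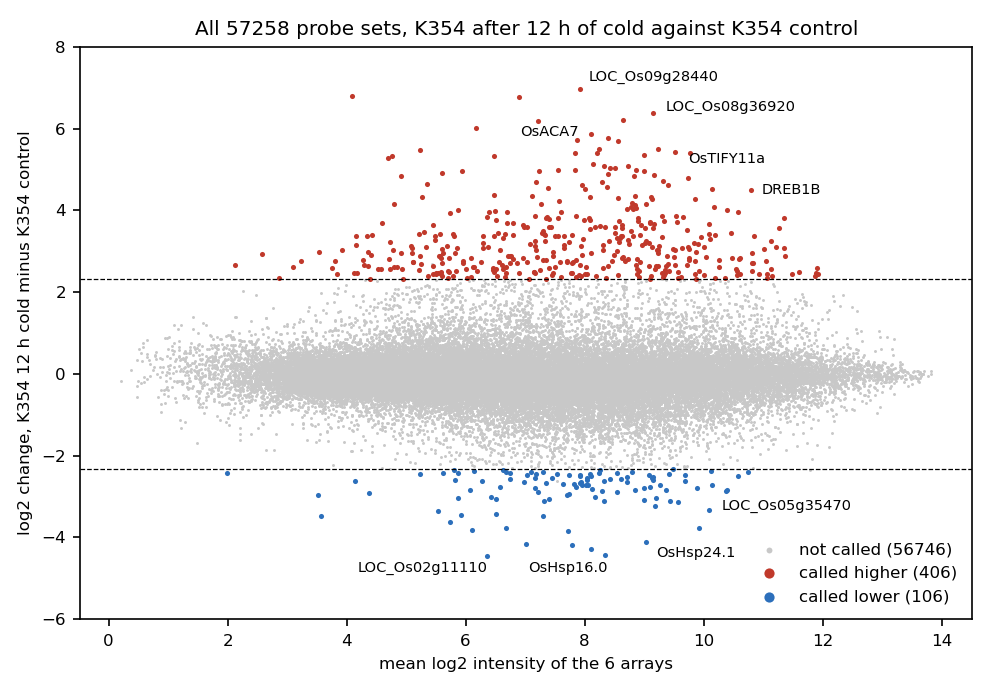
Change at 12 h of each of the 57258 rice probe sets (log2 intensity of K354 12 h cold minus K354 control, vertical) against its mean log2 intensity over the 6 arrays (horizontal), with the dashed lines at 5-fold. The 406 probe sets called higher reach beyond 6 on the log2 scale, while the 106 called lower stop short of -5; scaled to the poly-A control RNAs the counts were 239 and 341.

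The steepest rise belonged to LOC_Os09g28440, a gene described as an AP2 domain protein. Its intensity was 2661, 2700.2 and 2771 at 12 h, against 16.3, 21.5 and 28.8 in control, a log2 change of 6.97 ± 0.23 (SE, adjusted p = 1.13e-18). A second AP2 domain gene, LOC_Os08g36920, measured 4203, 5691 and 5845 at 12 h, against 37.04, 76.2 and 85.8 in control, a change of 6.38 ± 0.34 (SE, adjusted p = 1.16e-14). For both, the 3 cold arrays lay far above the 3 control arrays. LOC_Os03g19070, described as a long cell-linked locus protein, reached 3802, 3427 and 3180.3, against 34.1, 48.9 and 60.7 in control (6.21 ± 0.20 (SE, adjusted p = 5.73e-19)). LOC_Os08g17160, with a plastocyanin-like domain, measured 1054, 1658 and 1185 at 12 h, against 14.5, 18.2 and 20.1 in control. All 3 of its control arrays were below the 25th percentile of the array, so its rise was at least 44.9-fold. LOC_Os10g35640, annotated as a mitochondrial Rf1-like protein, a class of organelle RNA-binding proteins, stood at 1917, 2173 and 2247, against 36.3, 36.9 and 34.9 (5.87 ± 0.19 (SE, adjusted p = 9.1e-19)). LOC_Os03g22270, an auxin-repressed protein, changed by 5.73 and the glucosyltransferase LOC_Os04g46970 by 5.50.

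The DREB1 factors were higher as a group. Of 5 genes found under this name in RefSeq, 4 were higher at an adjusted p under 0.05 and none lower, with a median change of 3.41, where 16.3% of all 17905 genes were higher, 31.3% lower and the median change was -0.11. DREB1B (LOC_Os09g35010) measured 8197, 8559 and 8612 at 12 h, against 241, 387 and 564 in control, a change of 4.50 ± 0.21 (SE, adjusted p = 7.72e-16). DREB1A (LOC_Os09g35030) measured 5073, 5541 and 5581, against 249, 369.96 and 417 in control, a change of 4.00 ± 0.18 (SE, adjusted p = 7.46e-16). In both, replicate 3 was the highest control array and lay far below every cold array. DREB1G (LOC_Os02g45450) rose by 3.41 ± 0.27 (SE, adjusted p = 3.55e-11) and DREB1E (LOC_Os04g48350) by 1.67 ± 0.32 (SE, adjusted p = 0.00012). DREB1E remained dim, at 128, 338 and 194 at 12 h and 45.4, 67.5 and 84.6 in control. LOC_Os01g73770, described in the study's annotation as DREB1F, was at 139, 257 and 148, against 9.83, 8.39 and 7.67 in control, which is at least 6.12-fold because all control arrays were below their 25th percentile. The sign of the group did not depend on scaling, its median being 2.87 with poly-A scaling.

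The gene called DREB1C gave unequal answers. The probe set that the study's annotation assigns to LOC_Os06g03670, DREB1C, measured 2578, 2811 and 2750.1 at 12 h, against 38.5, 50.4 and 72.8 in control, a change of 5.70 ± 0.29 (SE, adjusted p = 5.28e-15). The 3 probe sets that the array's gene table links to DREB1C did not pass the test, with changes of -0.22, 0.39 and 0.31. The fifth member of the DREB1 list is the brightest of these. Of 7 other AP2/ERF genes, 3 were higher and 1 lower (1 and 4 with poly-A scaling), beside 16.3% of all genes higher and 31.3% lower. OsDREB2B, a factor of the drought-related DREB2 branch, changed by 1.3 ± 0.11 (SE, adjusted p = 2.81e-10).

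**Figure D2:**
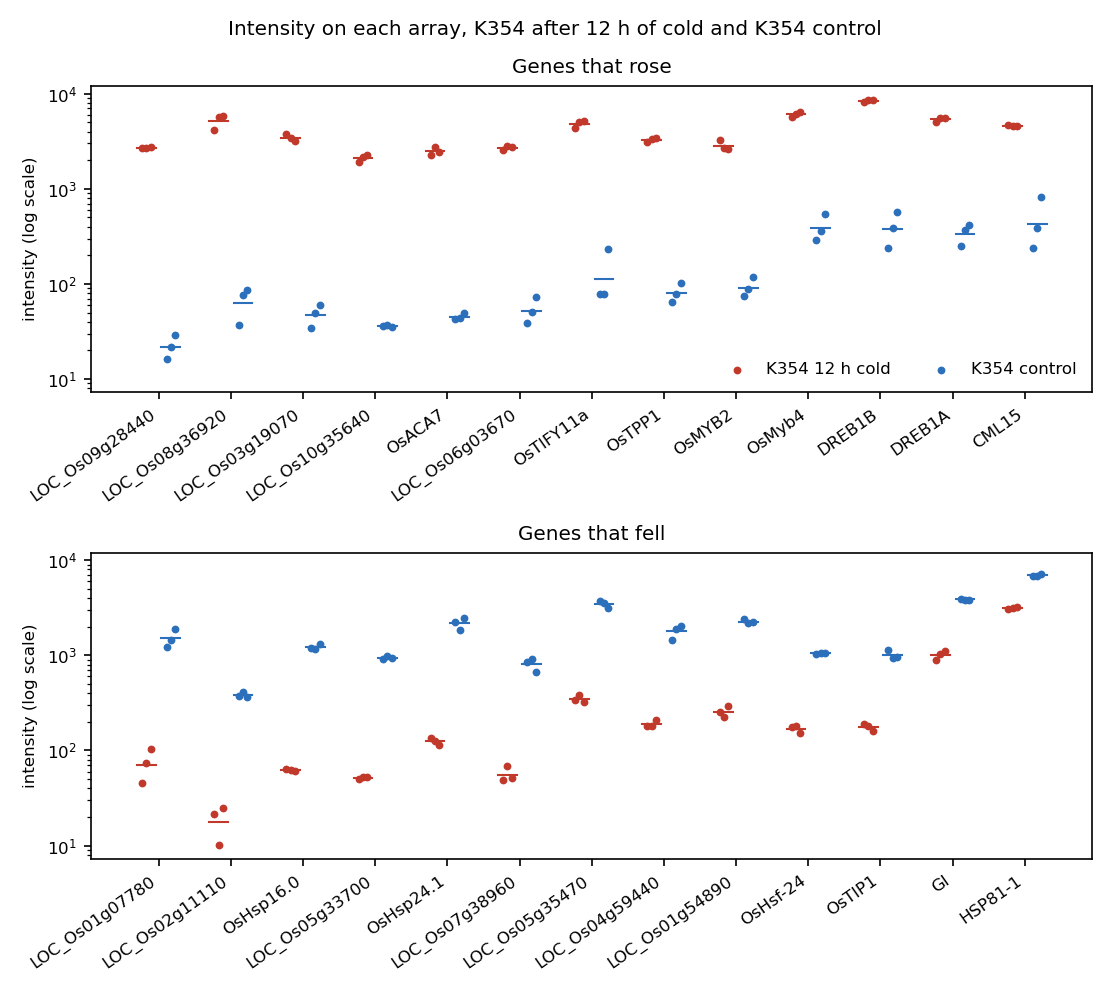
Intensity on a log scale of 13 genes that rose (top) and 13 that fell (bottom), each point 1 array and each bar the mean of 3 on the log scale, K354 12 h cold left of K354 control. The 2 groups overlap in no gene shown, but the genes were picked by their change in these same arrays, so this is no further support. DREB1B stands at 8197 to 8612 on the 12 h arrays, against 241 to 564 on the control arrays.

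Other transcription factor families held both rising and falling members, beside 16.3% of all genes higher and 31.3% lower. Of 10 MYB genes, 5 were higher and 4 lower (3 and 6 with poly-A scaling). OsMYB2 measured 3267, 2686 and 2620.1 at 12 h, against 73.8, 89.02 and 117 in control, a change of 4.96 ± 0.18 (SE, adjusted p = 6.73e-18). OsMyb4 (LOC_Os04g43680), which raises chilling tolerance when overexpressed in Arabidopsis, measured 5683, 6122 and 6373, against 291, 364 and 541, a change of 3.97 ± 0.17 (SE, adjusted p = 2.17e-16). Every cold array of both lay far above the highest control array. LOC_Os04g49450, another MYB gene, changed by 5.51, OsGAMyb, a gibberellin-regulated MYB, by 1.84, and MYBAS1 fell by 1.69 ± 0.16 (SE, adjusted p = 9.39e-10). Of 8 NAC genes, 5 were higher and none lower, led by OsNAC3 (LOC_Os07g12340) at 6313, 5670.3 and 5753, against 467, 603 and 662 in control (3.37 ± 0.12 (SE, adjusted p = 4.64e-18)), and OsNAC4 (LOC_Os01g60020), which changed by 2.55 ± 0.16 (SE, adjusted p = 4.55e-13); the NAC median was 0.54, and with poly-A scaling 3 were higher, 2 lower and the median -0.003. Of 6 WRKY genes, 3 were higher and 2 lower (2 and 2 with poly-A scaling). OsWRKY24 and OsWRKY71, known as repressors in hormone signalling of aleurone cells, changed by 2.97 ± 0.20 (SE, adjusted p = 1.33e-12) and 1.90 ± 0.10 (SE, adjusted p = 6.33e-15), and WRKY51 fell by 1.80 ± 0.17 (SE, adjusted p = 1.92e-09). Of 13 bHLH genes, 1 was higher, OsbHLH148 (LOC_Os03g53020, 2.80 ± 0.32 (SE, adjusted p = 5.9e-08)), and of 21 bZIP genes 2 were higher and 11 lower (1 and 16 with poly-A scaling).

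Heat stress factors, some of which switch on chaperone genes, went in both directions, with 6 of 20 higher and 8 lower (4 and 13 with poly-A scaling). Among all genes, 16.3% were higher and 31.3% lower. OsHsf-07 (LOC_Os02g32590) measured 1839.6, 2302 and 2183 at 12 h, against 104, 102 and 99.2 in control (4.36 ± 0.28 (SE, adjusted p = 7.52e-13)). OsHsf-03 (LOC_Os01g53220) changed by 3.77 ± 0.17 (SE, adjusted p = 8.25e-16). In the other direction, OsHsf-24 (LOC_Os09g35790) measured 175, 179 and 152, against 1029, 1068 and 1057 in control, and fell by 2.64 ± 0.16 (SE, adjusted p = 2.41e-13), and OsHsf-14 fell by 2.19 ± 0.17 (SE, adjusted p = 2.2e-11). For each of the 4, which were picked by their change here, the cold and control arrays were separate.

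Jasmonate genes included several of the strong risers. JAZ proteins repress jasmonate responses and are broken down when the hormone is present. Of 17 measured, 8 were higher and 1 lower, with a median of 0.10 that became -0.27 and -0.44 with the 2 scalings to control RNAs, where 6 were higher and 6 or 7 lower. In the main fit 16.3% of all genes were higher and 31.3% lower. OsTIFY11a (LOC_Os03g08310) measured 4333, 5033 and 5162 at 12 h, against 77.5, 78.5 and 235 in control, a change of 5.42 ± 0.30 (SE, adjusted p = 2.52e-14). OsTIFY11e (LOC_Os10g25230) changed by 4.27 ± 0.34 (SE, adjusted p = 6.16e-11), OsTIFY11b by 2.60 ± 0.18 (SE, adjusted p = 3.67e-12) and OsTIFY11c (LOC_Os03g08320) by 2.02 ± 0.20 (SE, adjusted p = 3.45e-09). Control replicate 3 of OsTIFY11a was about 3 times the other two control arrays and still far below all cold arrays. AOS2 (LOC_Os03g12500), an allene oxide synthase at the entry to jasmonate synthesis, measured 3291, 3639.5 and 3539, against 534, 651 and 782 in control (2.43 ± 0.16 (SE, adjusted p = 1.54e-12)).

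Calcium signalling genes also held strong risers, and the counts of these lists stand beside 16.3% of all genes higher and 31.3% lower. Of 26 calmodulins and calmodulin-like genes, 8 were higher and 1 lower, and the list median was 0.01, whereas with poly-A scaling 7 were higher, 17 lower and the median -0.53. CML15 (LOC_Os05g31620), a calcium sensor, measured 4699.9, 4553 and 4628 at 12 h, against 239, 388 and 827 in control (3.44 ± 0.29 (SE, adjusted p = 1.15e-10)). CML27 (LOC_Os03g21380) measured 7080.3, 6791 and 6903, against 623, 709 and 889 in control (3.24 ± 0.12 (SE, adjusted p = 8.22e-18)). The cold arrays of CML15 lay close together, its control arrays spread more widely, and the groups did not overlap. CML31 (LOC_Os01g72530) changed by 3.05 and CML16 (LOC_Os01g04330) by 2.45. Of 9 calcium ATPases and exchangers, 4 were higher and 1 lower (1 and 5 with poly-A scaling). OsACA7 (LOC_Os10g28240), annotated as a plasma membrane calcium pump, measured 2265, 2768 and 2466, against 43, 43.7 and 49.8 in control, a change of 5.78 ± 0.29 (SE, adjusted p = 6.1e-15) and the sixth largest among the named risers. Of 20 calcium-dependent kinases, 6 were higher and 2 lower (4 and 10 with poly-A scaling), with OsCDPK4 at 1.65 ± 0.19 (SE, adjusted p = 5.51e-08). Of 31 CBL and CIPK genes, calcium sensors and the kinases they bind, 12 were higher and 9 lower (4 and 19 with poly-A scaling), OsCIPK26 changing by 1.07 and OsCIPK05 by -1.51. Of 16 MAP kinase genes, 8 were higher and 3 lower (4 and 7 with poly-A scaling). OsBIMK1 (LOC_Os03g17700), a stress-responsive MAP kinase, changed by 2.21 ± 0.25 (SE, adjusted p = 2.87e-08).

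Clock genes were measured against a control that held no shoots taken at 12 h. Of 7, 3 were higher and 3 lower (2 and 3 with poly-A scaling), beside 16.3% of all genes higher and 31.3% lower. OsPCL1 (LOC_Os01g74020), the rice relative of the evening-complex gene LUX of Arabidopsis, measured 533, 661 and 701 at 12 h, against 41.5, 42.5 and 47.2 in control (3.85 ± 0.18 (SE, adjusted p = 1.48e-15)). OsPRR1 (LOC_Os02g40510), the counterpart of the evening gene TOC1, measured 628, 701 and 719, against 90.6, 89.4 and 93.4 in control (2.90 ± 0.27 (SE, adjusted p = 9.14e-10)). GI, the counterpart of GIGANTEA, went the other way, at 891, 1020.5 and 1109 at 12 h and 3953, 3833 and 3850.2 in control, and fell by 1.95 ± 0.09 (SE, adjusted p = 5.48e-16). OsPRR73 fell by 0.72 ± 0.09 (SE, adjusted p = 5.9e-07).

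**Figure D3:**
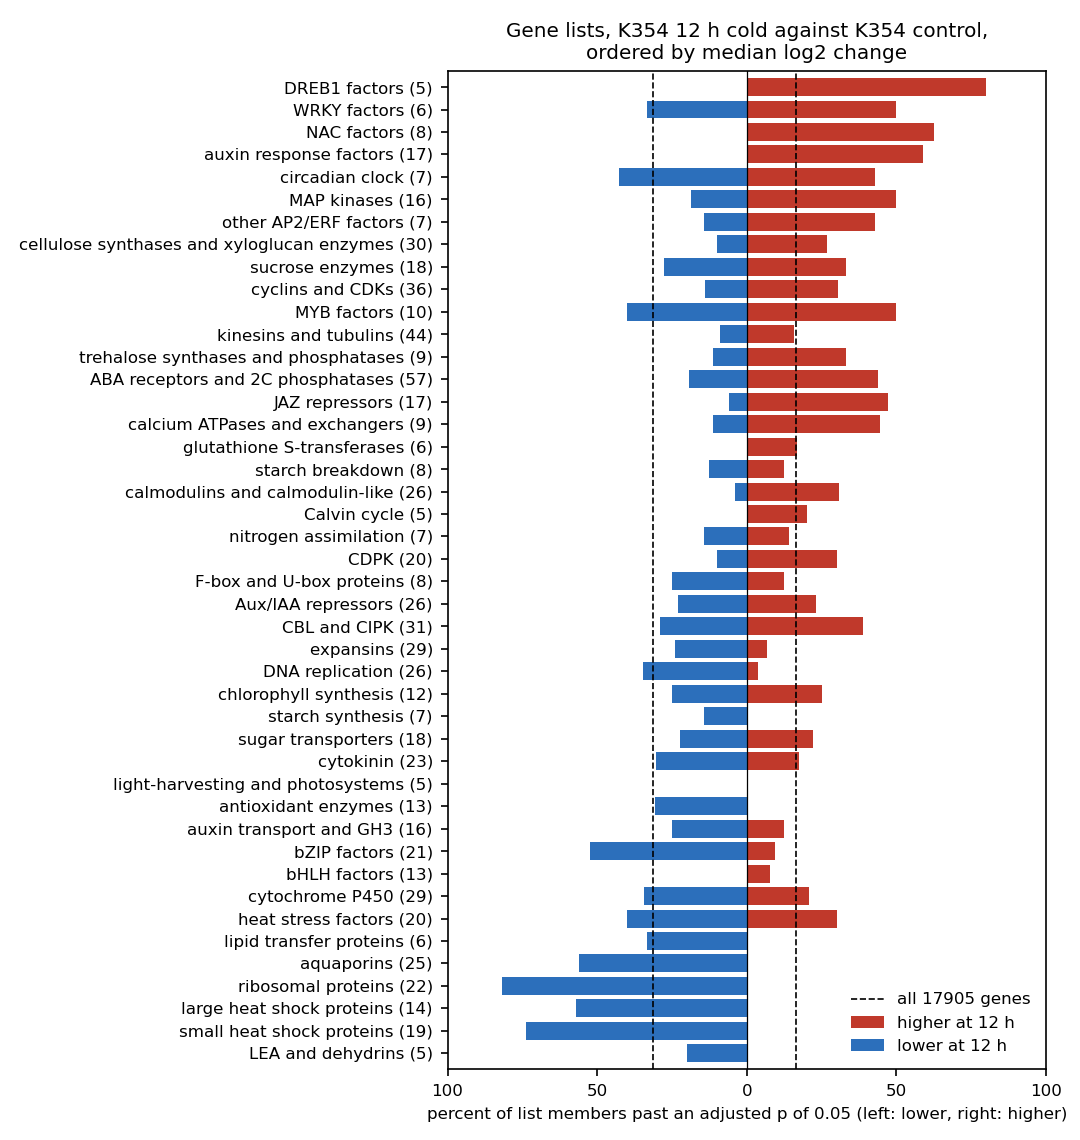
Share of each gene list that was higher (right, red) or lower (left, blue) in K354 at 12 h than in K354 control at an adjusted p under 0.05, with the number of genes in parentheses and the shares of all 17905 genes as dashed lines. Ribosomal proteins, heat shock proteins and aquaporins lie on the lower side and DREB1 factors on the higher side under each scaling tried. Other lists, such as lipid transfer proteins and bZIP factors, also kept a negative median under each. With arrays scaled to the control RNAs, the lists with a positive median other than DREB1 factors fell below 0 in 1 or both scalings, except the WRKY factors.

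Among genes of sugar metabolism, OsTPP1 (LOC_Os02g44230), a trehalose-6-phosphate phosphatase, the enzyme of the last step to trehalose, measured 3092, 3323 and 3455 at 12 h, against 64.7, 77.7 and 103 in control, a change of 5.35 ± 0.26 (SE, adjusted p = 2.87e-15). Of the 9 genes of trehalose synthesis, 3 were higher and 1 lower (2 and 5 with poly-A scaling), beside 16.3% of all genes higher and 31.3% lower. The amylase gene LOC_Os08g36910 measured 184, 238 and 192, against 7.54, 7.85 and 9 in control, at least 7.16-fold. AMY1.3, another alpha-amylase, was at 102, 133 and 119, against 11.7, 15.5 and 14.2, at least 4.13-fold. In both, every control array was below the 25th percentile of its array. Of 18 sugar transporters, 4 were higher and 4 lower (2 and 11 with poly-A scaling). OsSUT4, a sucrose transporter, changed by 1.21 ± 0.15 (SE, adjusted p = 1.91e-07), and OsSWEET1b, a sugar exporter, fell by 1.07 ± 0.10 (SE, adjusted p = 1.13e-09). OsSWEET15 passed the test through replicate 1 of the 12 h arrays, with 534, 33.7 and 34.2 at 12 h, against 21.7, 21.5 and 29.4 in control, and without that array its change was 0.50 with an adjusted p of 0.0948.

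Of 57 abscisic acid receptors and 2C phosphatases, 25 were higher and 11 lower, and with poly-A scaling 10 were higher and 31 lower. The phosphatases were matched by name, whatever pathway they act in. The shares of all genes in the main fit were 16.3% higher and 31.3% lower. OsPP2C32 (LOC_Os03g18150) measured 4076, 4198 and 4336 at 12 h, against 529.6, 587 and 643 in control (2.85 ± 0.13 (SE, adjusted p = 4.76e-16)), and OsPP2C27 (LOC_Os02g55560) changed by 2.57 ± 0.25 (SE, adjusted p = 2.72e-09). OsABA8ox1 (LOC_Os02g47470), a cytochrome P450 that breaks down abscisic acid, was among the brightest genes at 12 h with 9632, 9604 and 10277, against 511, 694 and 959 in control, a change of 3.82 ± 0.16 (SE, adjusted p = 9.75e-17). OsCYP85A1, a P450 of brassinosteroid synthesis, changed by 2.95 ± 0.22 (SE, adjusted p = 1.47e-11). Of the auxin response factors, the transcription factors of the auxin pathway, 10 of 17 were higher and none lower with a median of 0.37, whereas 2 were higher and 6 lower with poly-A scaling and the median was -0.17. ARF10 (LOC_Os04g43910) was highest with 2.04 ± 0.20 (SE, adjusted p = 2.58e-09), and its 12 h arrays read 254, 328 and 248, against 72.4, 62.5 and 65.8 in control. Of 26 Aux/IAA repressors, 6 were higher and 6 lower (1 and 16 with poly-A scaling). IAA23 (LOC_Os06g39590) is read by 2 probe sets. The dimmer measured 205, 272 and 282 at 12 h, against 6.36, 4.93 and 5.70 in control, at least 8.82-fold, and the brighter changed by 1.99 ± 0.19 (SE, adjusted p = 1.13e-09). OsGH3-8, which conjugates auxin to amino acids, changed by 2.21 ± 0.20 (SE, adjusted p = 4.02e-10), and OsCKX11, a cytokinin oxidase, fell by 1.51 ± 0.13 (SE, adjusted p = 3.8e-10).

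Lists of cell division and growth hormone genes had members on both sides, beside 16.3% of all genes higher and 31.3% lower. Of 36 cyclins and their kinases, which drive the cell cycle, 11 were higher and 5 lower (5 and 18 with poly-A scaling). CDC2Os-3, a cyclin-dependent kinase, measured 147, 209.9 and 183 at 12 h, against 40.8, 45.8 and 52.5 in control (1.95 ± 0.23 (SE, adjusted p = 6.05e-08)), and CYCD6-1, a D-type cyclin, changed by 1.57 ± 0.19 (SE, adjusted p = 1.63e-07). Of 26 genes of DNA replication, 1 was higher and 9 lower (1 and 16 with poly-A scaling). OsRPA70c, a subunit of replication protein A, which coats single-stranded DNA, measured 46.6, 54.5 and 56.7, against 141, 133 and 126 in control, and fell by 1.34 ± 0.30 (SE, adjusted p = 0.000829). Within this family the higher gene was OsRPA70b, with 44.7, 65.6 and 76.7 at 12 h, against 25.4, 27.01 and 29.6 in control (1.16 ± 0.21 (SE, adjusted p = 5.5e-05)). Of 23 cytokinin genes, 4 were higher and 7 lower (none and 19 with poly-A scaling). OsAHP1, a phosphotransfer protein of the cytokinin relay, measured 266, 263 and 313, against 632, 576 and 676 in control (-1.16), and the response regulator OsRRB4 fell by 1.16 ± 0.13 (SE, adjusted p = 4.78e-08). SAUR39, an early auxin gene, measured 389, 405 and 389.7, against 1077, 1099 and 1124 in control, and fell by 1.48 ± 0.16 (SE, adjusted p = 2.62e-08). Of 18 enzymes that make or cleave sucrose, 6 were higher and 5 lower (none and 8 with poly-A scaling). The sucrose synthase OsSUS2 measured 1105, 1111 and 1373, against 2184, 2304 and 2353 in control, and fell by 0.94 ± 0.15 (SE, adjusted p = 8.45e-06). LTP, a lipid transfer protein, measured 3407, 2918 and 3345, against 6754, 6479 and 6463 in control, and fell by 1.03 ± 0.08 (SE, adjusted p = 9.38e-12).

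The falling genes included most of the heat shock proteins, chaperones that keep other proteins from clumping. Of 19 small heat shock proteins, 14 were lower and none higher with a median of -0.51, and of 14 larger ones 8 were lower and none higher with a median of -0.50. Among all genes, 31.3% were lower and 16.3% higher, with a median of -0.11. OsHsp16.0 (LOC_Os06g14240) measured 64.2, 61.6 and 61 at 12 h, against 1181, 1164 and 1327 in control, and fell by 4.29 ± 0.15 (SE, adjusted p = 3.58e-18). OsHsp24.1 (LOC_Os02g52150), described as a mitochondrial precursor, measured 137, 126 and 115, against 2264, 1863 and 2473 in control, and fell by 4.12 ± 0.17 (SE, adjusted p = 4.03e-17). In both, every cold array lay far below every control array. HSP81-1, of the Hsp90 family, read 3042, 3152 and 3225, against 6891, 6819 and 7107 in control (-1.14), and BIP1, the Hsp70 of the endoplasmic reticulum, fell by 1.62 ± 0.15 (SE, adjusted p = 4.88e-10). Both lists kept their direction under each scaling tried, with at most 1 small heat shock protein called higher.

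Genes of protein synthesis and water transport were lower as groups, beside 31.3% of all genes lower, 16.3% higher and a median change of -0.11. Of 22 ribosomal proteins named in RefSeq, 18 were lower and none higher, with a median of -0.47. RPL11 measured 778, 627 and 721 at 12 h, against 1793, 1772 and 1726 in control (-1.32), and RPL39B measured 2587, 2073 and 2302, against 4014, 3955 and 4079 (-0.80). The changes of RPL11 and RPL39B, picked by their change here, were modest in size, and their cold and control arrays did not overlap. Of 25 aquaporins, the water channels of the plasma membrane and tonoplast, 14 were lower and none higher, with a median of -0.39. OsTIP1;1 measured 1965, 2437 and 1905, against 6965, 6657 and 7497 in control, and fell by 1.75 ± 0.28 (SE, adjusted p = 1.01e-05). OsTIP1 measured 189, 179.6 and 162, against 1145, 935 and 954 in control, and fell by 2.51 ± 0.29 (SE, adjusted p = 4.74e-08). OsTIP2;2 had a change of -1.58 on the log2 scale. Both lists were lower under each scaling tried, with medians between -0.41 and -1.01 for ribosomal proteins and between -0.34 and -0.93 for aquaporins.

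Of 12 genes of chlorophyll synthesis, 3 were higher and 3 lower (none and 7 with poly-A scaling). Of 5 Calvin cycle genes, 1 was higher and none lower (none and 4 with poly-A scaling). Among all genes, 16.3% were higher and 31.3% lower. The 5 abundant light-harvesting and photosystem genes of the list had changes from -0.12 to -0.17 and none passed the test, although with arrays scaled to control RNAs all 5 were lower. CAB2R is an example of these, at 11982, 11988 and 11019 at 12 h, against 13099.8, 13034 and 13310.4 in control. Another 2 chlorophyll a/b binding protein genes, dimmer than these, were named because they were among the largest falls. LOC_Os07g38960 measured 48.7, 68.3 and 51.5 at 12 h, against 848, 905 and 671 in control, and fell by 3.85 ± 0.21 (SE, adjusted p = 3.2e-14). LOC_Os04g59440 measured 182, 179 and 211, against 1452, 1913 and 2056 in control, and fell by 3.23 ± 0.31 (SE, adjusted p = 1.35e-09). PORB, an enzyme of chlorophyll synthesis, fell by 1.59 ± 0.24 (SE, adjusted p = 4.04e-06), and OsAPx02, an ascorbate peroxidase that removes hydrogen peroxide, by 0.72 ± 0.07 (SE, adjusted p = 1.52e-09). RNC1, known from maize to splice chloroplast introns, read 18.97, 18.8 and 17.3 at 12 h, against 252, 274 and 251 in control, a fall of at least 9.35-fold. LOC_Os05g35470, a dienelactone hydrolase domain protein, measured 337, 378 and 319.8, against 3683, 3556 and 3170.3 in control (-3.33).

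The other named falls were of mixed function. LOC_Os05g33700, of the 4F5 family, measured 49.9, 52.1 and 52.7 at 12 h, against 914, 981 and 936 in control, and fell by 4.19 ± 0.22 (SE, adjusted p = 7.98e-15). LOC_Os01g54890, an ethylene-responsive factor, measured 253, 226 and 292, against 2395, 2168 and 2221 in control, and fell by 3.14 ± 0.24 (SE, adjusted p = 1.71e-11). LOC_Os07g43560, a kinase of the DUF26 class, fell by 3.12 ± 0.28 (SE, adjusted p = 4.85e-10). The peroxidase LOC_Os06g33100 was called on the strength of 1 control array: it measured 25.8, 21.1 and 39 at 12 h, against 78.7, 3991 and 83.7 in control, and its probe set carries the mark for probes that may also match other transcripts. Its adjusted p was 0.000653, or 0.14 when only the 6 arrays were fitted. Of 5 LEA proteins and dehydrins, which protect drying cells and are often raised by cold, none was higher and 1 lower, RAB21, whose 12 h values of 172, 173 and 369 lay below the control values of 560.1, 720.2 and 1719, with an adjusted p of 0.0364 that became 0.0882 without replicate 1, and 0.115 without replicate 2, of the 12 h arrays, and 0.0556 and 0.18 without replicates 2 and 3 of control.

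Against K354 at 6 h, a comparison that does not use the control, few probe sets had moved more than 5-fold by 12 h: 15 probe sets were called higher and 1 lower, 0.0262% and 0.00175% of those tested. By adjusted p alone, 1840 were higher and 1777 lower. The ASR gene LOC_Os04g34600, of the abscisic stress-ripening family, measured 267, 345 and 285 at 12 h, against 51.5, 57.3 and 57.02 at 6 h (2.43 ± 0.18 (SE, adjusted p = 1.47e-09)). The alpha-amylase LOC_Os08g36910 measured 184, 238 and 192, against 48.03, 22.3 and 45.6 at 6 h (2.48 ± 0.43 (SE, adjusted p = 0.000414)). LOC_Os01g72370, a bHLH gene, measured 2374, 1952 and 2369, against 663, 274 and 371 (2.45 ± 0.45 (SE, adjusted p = 0.000781)). In each of these the 12 h arrays lay above all 6 h arrays. OsSPX5, of a family that senses phosphate status, measured 27.5, 53.7 and 85.7, against 4.92, 8.04 and 15.6, all of them dim at 6 h, and the rise was at least 1.74-fold, a change that did not pass with a floor at the 25th percentile (adjusted p = 0.09). The single probe set called lower has no gene name and rests on replicate 2 at 6 h, with 17.03, 7.83 and 13.06 at 12 h, against 26.3, 1125 and 25.7 at 6 h. The DREB1 factors did not pass this test, for example DREB1B with 0.09 and DREB1A with -0.02. By contrast OsPCL1 was higher by 1.36 ± 0.18 (SE, adjusted p = 1.91e-05), with an adjusted p of 0.0602 when only the 6 arrays were fitted, LOC_Os04g46970 by 1.77, OsACA7 by 1.13 and LOC_Os10g35640 by 1.12. Among the lists, clock genes had the highest share, with 4 of 7 higher and a median of 0.85, where 5.02% of all genes were higher and 4.02% lower. With arrays scaled to control RNAs, 7 or 8 probe sets were called higher and 3 or 6 lower, and without replicate 1 of the 12 h arrays 21 higher and 2 lower.

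**Figure D4:**
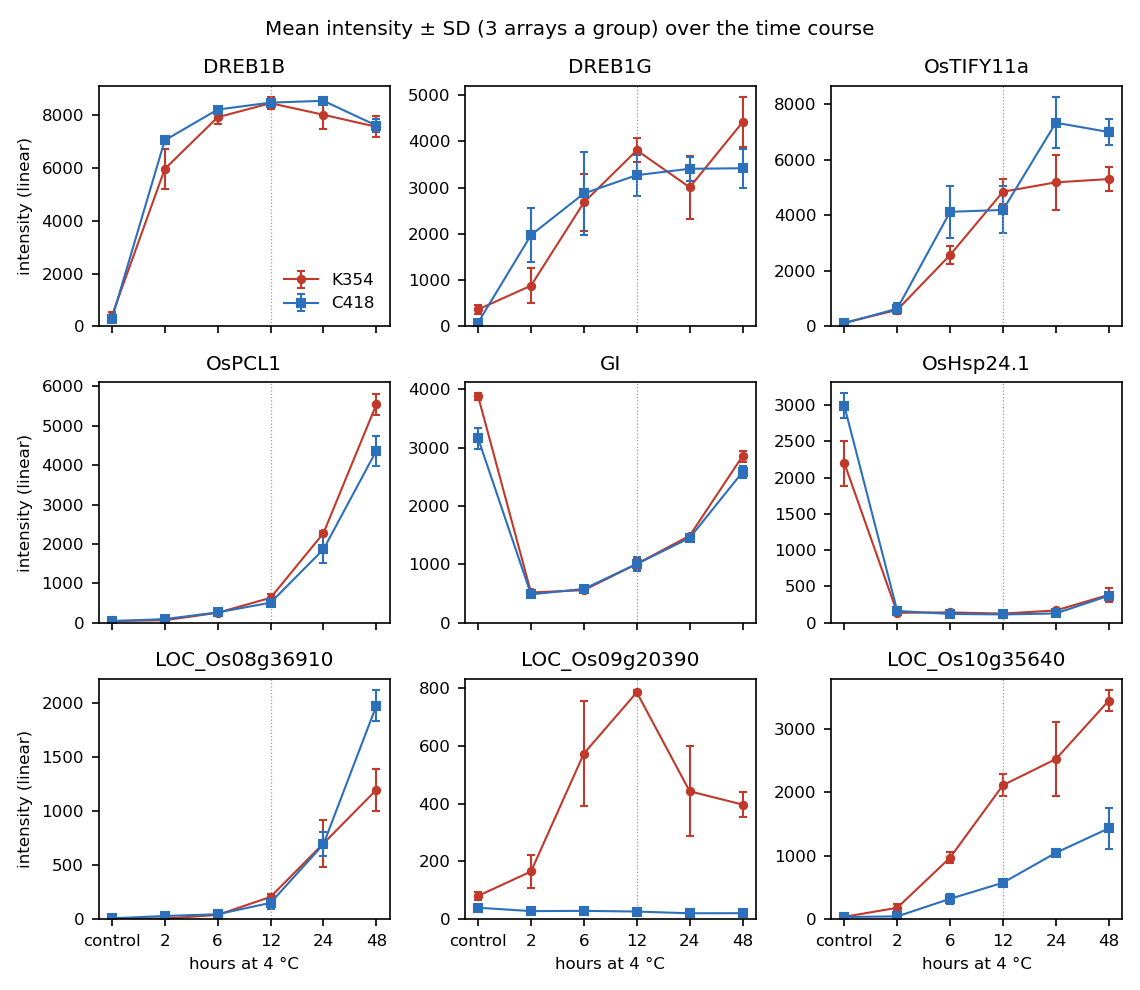
Mean intensity ± SD of 3 arrays a group (linear scale) over the control and 2, 6, 12, 24 and 48 h at 4 °C for 9 genes, K354 in red and C418 in blue, with 12 h marked by the dotted line. DREB1B averaged 397 in K354 control, 5964 at 2 h and 8456 at 12 h, OsPCL1 and the amylase LOC_Os08g36910 were higher at 24 h than at 12 h, OsHsp24.1 had fallen to 137 by 2 h, and LOC_Os09g20390 had a response higher in K354 than in C418 by 3.90 on the log2 scale.

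Over the longer interval from 12 h to 24 h, more probe sets moved more than 5-fold: 387 probe sets were called higher at 24 h than at 12 h and 2 lower, 0.676% and 0.00349% of those tested. Without the fold threshold, 8547 were higher and 5782 lower. The count of rises depended on the arrays, being 636 without replicate 2 of 24 h, 222 without replicate 3 of 24 h, 296 without replicate 1 of 12 h and 537 without both replicate 1 of 12 h and replicate 2 of 24 h. By adjusted p alone, cell wall and microtubule lists had many higher members, of which 1 and 4 were over 5-fold. Of 30 cellulose synthases and xyloglucan enzymes, 22 were higher and none lower with a median of 0.84, and of 44 kinesins and tubulins 32 were higher and 2 lower with a median of 0.77, where 25.1% of all genes were higher and 16.4% lower; with poly-A scaling 15 and 17 were higher and the medians were 0.585 and 0.51. Without replicate 2 of 24 h, 22 and 39 were higher, 1 and 3 lower, and the medians were 1.04 and 0.98. OsCesA6 (LOC_Os07g14850), a cellulose synthase, measured 1726, 1115 and 1854 at 24 h, against 422, 935 and 479 at 12 h (1.41 ± 0.31 (SE, adjusted p = 0.00119)). KIN13B, a kinesin motor, measured 1513, 1079 and 1733 at 24 h, against 522, 1054 and 440.1 at 12 h (1.18 ± 0.32 (SE, adjusted p = 0.00685)). For both, replicate 2 of 12 h was the highest of its group. The call of OsCesA6 was lost when only the 6 arrays were fitted (adjusted p = 0.057). The call of KIN13B was lost without replicate 3 of 24 h (adjusted p = 0.0527), without replicate 3 of 12 h (0.0605) and when only the 6 arrays were fitted (0.0864). At 12 h OsCesA6 was already above control by 1.46 ± 0.31 (SE, adjusted p = 0.000447) and OsCesA5 (LOC_Os03g62090) by 2.03 ± 0.28 (SE, adjusted p = 8.68e-07).

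Of the 4 named genes with the largest rises after 12 h, 3 were below the 25th percentile of their array on every 12 h array. LOC_Os10g06000, of the Pollen Ole e I and extensin family, measured 2249, 126 and 3493 at 24 h, against 9.78, 11.2 and 9.85 at 12 h, at least 36-fold. PRX74, a class III peroxidase, measured 822, 76.6 and 1146 at 24 h, against 3.38, 13.6 and 9.91 at 12 h, at least 15-fold. LOC_Os01g59870, of the protease inhibitor and lipid transfer family, measured 917, 33.5 and 932 at 24 h, against 8.66, 11.02 and 7.48 at 12 h, at least 11-fold. Its call was lost when only the 6 arrays were fitted (adjusted p = 0.0568). In these 3, replicate 2 of 24 h was far below the other 24 h arrays, so the folds given are averages carried by those arrays. LOC_Os10g36100, of the same family, measured 904, 3345 and 2115 at 24 h, against 45.6, 36.3 and 89.8 at 12 h (5.13 ± 0.55 (SE, adjusted p = 3.51e-07)), with replicate 2 highest. DREB1A was lower at 24 h than at 12 h, with a change of -0.54 ± 0.18 (SE, adjusted p = 0.0313). That call was lost without replicate 3 of 24 h (adjusted p = 0.282), without replicate 2 of 12 h (0.0803) and without replicate 3 of 12 h (0.0869). It was also lost when only the 6 arrays were fitted (0.137). LOC_Os03g19070 fell by 0.74 ± 0.20 (SE, adjusted p = 0.00669), a call lost without replicate 3 of 24 h (0.0598) and when only the 6 arrays were fitted (0.0553). Both probe sets called lower rest on replicate 1 of 12 h: LOC4347695 measured 12.6, 6.65 and 10.3 at 24 h, against 479, 26.9 and 14.97 at 12 h, and a probe set with no gene name 16.6, 19.9 and 17.9 at 24 h, against 2618, 24.8 and 18.0 at 12 h. They and the probe set lower against 6 h were singled out after their values were seen.

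C418 at 12 h, set against its own control, gave 427 probe sets called higher and 113 lower, 0.746% and 0.197% of those tested. Of the 406 called higher in K354, 332 were also called in C418, which is 81.8% of the K354 calls and 77.8% of the C418 calls. Of the 106 called lower, 58 were shared, 54.7% of the K354 calls and 51.3% of the C418 calls. In C418 itself, 4 of 5 DREB1 factors were higher and none lower, 11 of 19 small heat shock proteins were lower and 1 higher, and 19 of 22 ribosomal proteins and 13 of 25 aquaporins were lower and none higher, where 17.1% of all genes were higher and 28.7% lower. The difference of the responses, K354 minus C418, needed an adjusted p under 0.05 and no fold, and was called for 370 probe sets in which the K354 response was higher and 639 in which it was lower, 0.646% and 1.12% of those tested. Of the 74 K354 rises that were not called in C418, 18 passed this test. The counts depended on replicate 1 of the K354 12 h arrays: without it, 640 were called higher and 1964 lower. With median centring, 433 were called higher and 407 lower, with hybridization control scaling 154 and 623, and with poly-A scaling 145 and 144.

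The largest upward difference among the named genes was at a trehalose phosphatase gene. LOC_Os09g20390 is read by 2 probe sets, which the gene tables name OsTPP7 or, in the study's annotation, OsTPP11B. On the dimmer, K354 measured 781, 795 and 781 at 12 h, against 71.8, 96.8 and 72.6 in control, and C418 measured 29.1, 24.9 and 24.2 at 12 h, against 42.3, 39.4 and 36.6 in control, a difference of responses of 3.90 ± 0.35 (SE, adjusted p = 3.73e-08). On the brighter, K354 measured 3177, 3121 and 3169.6 at 12 h, against 1209, 1277 and 973 in control, and C418 changed by -0.03, a difference of 1.49 ± 0.27 (SE, adjusted p = 0.00165). The 2 probe sets had the same direction and differed in size. LOC_Os03g21660, described as FAR1, differed by 2.41 ± 0.47 (SE, adjusted p = 0.00381), LOC_Os08g02630, described as the photosystem II protein psbY, by 2.15 ± 0.29 (SE, adjusted p = 4.21e-05), and LOC_Os02g30620, with a DnaJ domain, by 2.05 ± 0.38 (SE, adjusted p = 0.00232). LOC_Os02g30620 is dim, with 15.1, 33.7 and 32.05 at 12 h in K354, and its difference was lost with values below the 25th percentile set to it (0.15, adjusted p = 0.662). With the same floor the call of LOC_Os03g21660 was also lost (1.28, adjusted p = 0.133). LOC_Os10g35640, the Rf1-like gene, rose in both lines and more in K354, with 565, 521 and 632 in C418 at 12 h, against 31.9, 34.8 and 31.1 in C418 control, a difference of 1.74 ± 0.27 (SE, adjusted p = 0.000314).

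**Figure D5:**
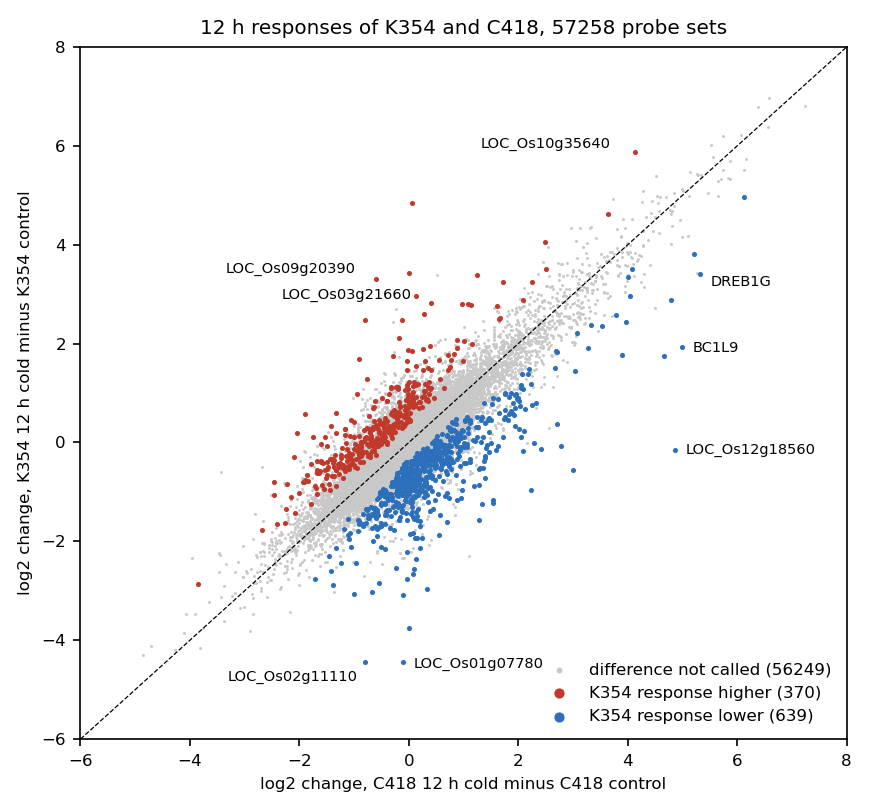
Log2 change at 12 h in K354 (vertical) against that in C418 (horizontal) for 57258 probe sets, each line against its own control, with equal responses on the dashed line. The 370 probe sets with a higher and the 639 with a lower response in K354 lie off the line. LOC_Os09g20390 rose in K354 with no rise in C418, and LOC_Os12g18560 rose in C418 and was at background on all K354 arrays.

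In the other direction, LOC_Os12g18560, of the invertase and pectin methylesterase inhibitor family, stayed at background in K354, with 3.78, 3.59 and 5.34 at 12 h and 3.78, 4.10 and 6.29 in control, and measured 175, 141 and 236 in C418 at 12 h, against 5.87, 5.34 and 7.62 in C418 control, a difference of -5.0 ± 0.40 (SE, adjusted p = 5.06e-09). All its K354 arrays and its C418 control arrays were below the 25th percentile, so no K354 response could be measured. With such values set to that percentile the difference was -2.73 (adjusted p = 1.76e-07). The array's sequences are mostly japonica, and whether these probes read a donor allele in K354 was not tested. For 2 genes the fall in K354 started from a level C418 did not have. LOC_Os01g07780, described as embryo-specific 3, measured 45.5, 73.1 and 102 in K354 at 12 h, against 1232, 1458 and 1904 in K354 control, and in C418 7.57, 8.21 and 9.84 at 12 h, against 8.01, 9.08 and 10.5 in control. LOC_Os02g11110, a flavonol glucosyltransferase, measured 21.5, 10.2 and 24.8, against 374, 411 and 365 in K354 control, and 1, 1.28 and 1.13 in C418 at 12 h, against 2.10, 2.10 and 1.72 in C418 control. Their differences of responses were -4.33 ± 0.49 (SE, adjusted p = 2.76e-06) and -3.65 ± 0.47 (SE, adjusted p = 2.42e-05). All C418 arrays of both, and the K354 12 h arrays of LOC_Os02g11110, were below the 25th percentile, so no C418 response could be measured; with the floor the differences were -4.44 (adjusted p = 4.05e-07) and -3.80 (adjusted p = 8.7e-14). BC1L9, of the COBRA-like family that acts in cell walls, measured 677, 723 and 969 in K354 at 12 h, against 163, 176 and 302 in control, and 1157, 1275 and 1436 in C418 at 12 h, against 39.4, 42.4 and 39.04 in control, a difference of -3.07 ± 0.46 (SE, adjusted p = 0.00016).

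Among all genes, 0.81% had a higher and 1.74% a lower response in K354 by this test, and of the listed genes described here DREB1G, OsABA8ox1 and OsPIP2;5 were lower. DREB1G ended at similar levels in the lines at 12 h, 3681, 4107 and 3626 in K354 and 2758, 3557 and 3489 in C418, and its control was higher in K354, at 266, 380.2 and 452, than in C418, at 75.2, 92.5 and 76.6, which gave a difference of responses of -1.91 ± 0.38 (SE, adjusted p = 0.00408). OsABA8ox1 differed by -1.39 ± 0.23 (SE, adjusted p = 0.000466) and OsPIP2;5, an aquaporin, by -1.38 ± 0.20 (SE, adjusted p = 9.86e-05). The other DREB1 genes did not pass this test, with differences of -0.29 for DREB1A and -0.47 for DREB1B. OsWRKY24, MYBAS1 and CYP71Z7, a P450, passed with differences of -1.08, -0.85 and -2.34 and lost the call in 11, 9 and 7 of the 12 fits that left out 1 array. By position, the called differences lay on all 12 chromosomes. They made up 4.29% of the probe sets with a gene on chromosome 7, 3.56% on chromosome 11 and 3.4% on chromosome 12, beside 2.49% over all chromosomes and 1.83% on chromosome 1, which had the lowest share; no test was made of this, and neighbouring genes in a donor segment are not independent.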

How the data were processed

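RNA of whole shoots was hybridised to Affymetrix rice genome arrays, 1 sample an array. The deposited values are intensities on a linear scale, which the authors made with the array maker's GCOS software at default settings and normalised in dChip by an invariant set of probes per their methods, whereas the labels name MAS5. The dChip version and expression model are not given in the sources used here, no detection call was used, and the number of arrays limits the precision. Of 57381 probe sets, 123 control probe sets were left out and 57258 tested. Log2 intensities of 36 arrays in 12 groups were fitted in 1 model with limma 3.58.1 in R 4.3.3 (lmFit and eBayes), with Benjamini-Hochberg adjustment over all probe sets and a call at an adjusted p under 0.05 and more than 5-fold; the difference of responses of K354 and C418 was called without a minimum fold. On simulated data with changes of known size, 48 of 50 6-fold and 49 of 50 10-fold rises, 47 of 50 6-fold and 50 of 50 10-fold falls, and 0 of 57058 unchanged probe sets were called in K354 at 12 h against control. The simulated noise was normal and independent between arrays, and the changes were placed only in probe sets with a K354 control mean above 50. Single outlying arrays, as in OsSWEET15 and LOC_Os06g33100, and dim probe sets with a change were not simulated, so the counts do not cover them.

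Genes were named from the array's gene table and RefSeq: 22436 of the tested probe sets had 1 gene, 95 several and 34727 none. Gene lists were matched by RefSeq symbols, with the brightest probe set of a gene (17905 genes), so members without a symbol are missing. The text names the 12 largest called rises and falls against control with a gene and a described product, the 4 largest in each other comparison, up to 4 members of each list, and genes the study discusses, which it chose on these samples. Array members, gene lists and tests were chosen with earlier results of these data known. Because most named genes were picked by their change in these arrays, remarks that their groups did not overlap describe them and add no support. An "at least" fold is given where all 3 arrays of the dimmer group were below the 25th percentile of their array, and takes that percentile as the dim level.

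Residuals of same-numbered arrays of different groups correlated at 0.00287 on average (from -0.5 to 0.337), and at -0.00132 otherwise. On average no pairing by replicate number showed, but an average cannot exclude it between particular groups. Alternatives were quantile normalization, median centring, scaling to either kind of spiked control RNA, a floor at the 25th percentile, a filter on dim probe sets, a replicate block, only the groups compared, a 2-fold threshold, the methods' t-test, ratios of arithmetic means and each array left out in turn. Coordinates, sequences and promoter motifs were not analysed here.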

Additional observations from a re-analysis of the deposited data

Results flagged for a closer look

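The 16 results below are probe sets of genes named in the text above, whose response to 12 h of cold differed between K354 and C418. The criterion was limma's test of the difference itself, at an adjusted p under 0.05 over all probe sets. It was passed by 370 probe sets with a higher and 639 with a lower K354 response, so these 16 are a selection. Each value is the K354 response minus the C418 response, on the log2 scale.

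The response of K354 was the higher at LOC_Os09g20390 (3.90, trehalose phosphatase), at its second probe set OsTPP7 (1.49), and at LOC_Os03g21660 (2.41), LOC_Os08g02630 (2.15), LOC_Os02g30620 (2.05) and LOC_Os10g35640 (1.74). The response of K354 was the lower at LOC_Os12g18560 (-5.0), LOC_Os01g07780 (-4.33), LOC_Os02g11110 (-3.65), BC1L9 (-3.07), CYP71Z7 (-2.34), DREB1G (-1.91), OsABA8ox1 (-1.39), OsPIP2;5 (-1.38), OsWRKY24 (-1.08) and MYBAS1 (-0.85).

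LOC_Os01g07780 and LOC_Os02g11110 were below the 25th percentile on all C418 arrays, and LOC_Os12g18560 on all K354 arrays. The calls of OsWRKY24, MYBAS1 and CYP71Z7 were lost in 11, 9 and 7 of the 12 fits that left out 1 array, and the other 13 held in all 12. Of those 13, LOC_Os02g30620 and LOC_Os03g21660 lost the call with values below the 25th percentile set to it (0.15, adjusted p = 0.662, and 1.28, adjusted p = 0.133), and with that floor the difference of LOC_Os12g18560 was -2.73 (adjusted p = 1.76e-07). The causes were not tested.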

How the results depend on the processing

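No value changed sign past the threshold under any alternative run. Of 2196 values of named genes under the alternatives, 2125 kept their side of the threshold, 65 were no longer called and 6 became called. A change of sign between values that were not called was not counted.

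Counts of calls are given as higher and lower. With a 2-fold threshold they were 1813 and 1957 for 12 h against control, 380 and 35 against 6 h, 2057 and 326 for 24 h against 12 h, and 109 and 249 for the difference of responses, where the main call has no minimum fold. With an unadjusted limma p, the difference of responses gave 2930 and 4547, and 12 h against 6 h 4 lower. With hybridization control scaling, 12 h against control gave 237 lower, 12 h against 6 h 8 and 3, and the difference 154 higher. With poly-A scaling, they were 239 and 341 against control, 7 and 6 against 6 h, 8 lower for 24 h against 12 h, and 145 and 144 for the difference. Median centring gave 4 lower at 24 h and 407 lower in the difference, and quantile normalization and the ratio of arithmetic means each gave 4 lower at 24 h. The floor gave 599 higher in the difference. Fitting only the groups compared gave 193 higher at 24 h and 563 higher in the difference. The floor, the dim filter and the fit of only the groups compared each gave 0 lower against 6 h and at 24 h, where the unadjusted limma p gave 4 and 3. The methods' t-test gave 0 and 0 calls against 6 h and at 24 h after adjustment, and 15 and 0 against 6 h and 301 and 0 at 24 h without it, where limma gave 15 and 1, and 387 and 2. Without both arrays that stand apart, a choice made after seeing the data, 24 h gave 8 lower. The causes were not tested.

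Leaving out 1 replicate at a time gave 385 to 437 higher and 104 to 117 lower against control, 13 to 21 and 0 to 5 against 6 h, 222 to 636 and 1 to 7 for 24 h, and 219 to 640 and 433 to 1964 for the difference. In the difference, the higher count was 640 without replicate 1 of K354 at 12 h, 224 without replicate 2 of it, 242 and 241 without replicates 2 and 3 of K354 control, 235 without replicate 3 of C418 at 12 h, and 219 and 224 without replicates 1 and 3 of C418 control. The replicate block gave 406 and 105 against control, and 377 and 623 in the difference. On average no pairing by replicate number showed. MYBAS1 and OsWRKY24 were the named genes that lost their call under the block (adjusted p = 0.0515 and 0.0502).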
